A study of Mus musculus with 24 samples.

Results

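Genes for matrix metalloproteinases (Mmp), their tissue inhibitors (Timp), Adamts proteases and lysyl oxidases (Lox, Loxl) were followed in the livers of 24 mice. Protein-coding symbols that join one of these family names to a number, and Lox itself, were taken, apart from 1 symbol that the rule leaves out, which gave 48 members. Symbols with a letter after the number were not taken. Of these, 40 were among the 21755 genes of the p16-3MR table, while Mmp16, Mmp20, Mmp21, Mmp24, Adamts8, Adamts18, Adamts19 and Adamts20 were not. In the wild-type (WT) table of 12643 labels, 9 lower-case letters are missing from the gene labels, and 23 members had a label that matched 1 symbol only. The labels of 12 members matched several symbols, among them Timp1, Timp2 and Timp3, and 13 members had no label. The p16-3MR mice carry a transgene by which cells that express p16 also make a viral thymidine kinase, and this enzyme turns ganciclovir (GCV) into a toxic product. From 16 to 18 months of age they received vehicle (VEH, pH11 water) or GCV (150 mg per kg in the labels) into the peritoneum on 5 days in a row each month. The study's methods give a lower GCV dose than the labels, and which was used is not known here. The WT mice, without the transgene, received VEH or GCV each month from 6 months of age, and livers were collected after 3 months. Each genotype had 4 groups of 3 livers, namely females and males given GCV or VEH, which the series' text calls biological replicates. All p16-3MR libraries are of batch 1 and all WT libraries of batch 2, so genotype, batch and age cannot be told apart, and no test between the tables was made. The transgene reports p16 transcription in any cell type, and whole liver was sequenced, so fewer cells of a type and less RNA per cell cannot be told apart.

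Extracellular matrix is built from collagens, elastin, proteoglycans and glycoproteins. Lysyl oxidases crosslink collagen and elastin, and procollagen N-proteinases (Adamts2, Adamts3, Adamts14) trim procollagen so that fibrils can form. Collagenases, gelatinases, stromelysins and membrane-type enzymes of the Mmp family cut matrix proteins, several other Adamts enzymes cut proteoglycans, and Timp proteins bind and block metalloproteinases. In liver, stellate cells and macrophages are known sources of many of these proteins, and senescent cells are known to secrete several Mmp and Timp proteins.

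Of the 48 members, 7 Mmp genes lie within 427 kb of chromosome 9 (chr9:7272514-7699585, GRCm38), namely Mmp13, Mmp3, Mmp10, Mmp8, Mmp27, Mmp20 and Mmp7. Promoter windows of 300 bases (250 before to 50 after the start site) were available for 30 members from RefSeq (GRCm38.p6) and were searched for TGANTCA, the letters of the AP-1 motif, which reads the same on both strands. The letters stood in 5 members, against 7.81% of all 32851 windows. These were Mmp13, Mmp3, Mmp10, Mmp7 and Mmp20, at 35, 46, 63, 63 and 95 bases before the start site, and all 5 belong to the chromosome 9 group. The windows of 3 of these and that of Timp1 are shown. These genes had their highest value of the p16-3MR livers in liver 32, a GCV-treated male, as did Mmp10, whose window is not shown. Mmp8 and Mmp27, chromosome 9 members whose windows lack the letters, were also highest in liver 32. Members of this group in the p16-3MR table were thus highest there with or without the letters. Each window shown reads 5′ to 3′ on the plus strand, and capitals mark the motif letters. A match describes the letters only. The windows are chr9:7272264-7272563 (Mmp13), chr9:7445572-7445871 (Mmp3), chr9:7691840-7692139 (Mmp7) and chrX:20869916-20870215 (Timp1, with no match).
Mmp13: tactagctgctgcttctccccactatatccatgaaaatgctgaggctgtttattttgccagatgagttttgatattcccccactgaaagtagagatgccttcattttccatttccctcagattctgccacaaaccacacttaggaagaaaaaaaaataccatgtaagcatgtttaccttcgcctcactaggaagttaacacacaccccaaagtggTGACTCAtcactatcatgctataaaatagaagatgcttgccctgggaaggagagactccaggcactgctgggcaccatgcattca
Mmp3: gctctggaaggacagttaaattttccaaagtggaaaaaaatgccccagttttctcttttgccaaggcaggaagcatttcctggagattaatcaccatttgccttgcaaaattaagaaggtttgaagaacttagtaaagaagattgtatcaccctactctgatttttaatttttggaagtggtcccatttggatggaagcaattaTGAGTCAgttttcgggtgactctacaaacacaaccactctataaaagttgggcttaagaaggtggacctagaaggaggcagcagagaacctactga
Mmp7: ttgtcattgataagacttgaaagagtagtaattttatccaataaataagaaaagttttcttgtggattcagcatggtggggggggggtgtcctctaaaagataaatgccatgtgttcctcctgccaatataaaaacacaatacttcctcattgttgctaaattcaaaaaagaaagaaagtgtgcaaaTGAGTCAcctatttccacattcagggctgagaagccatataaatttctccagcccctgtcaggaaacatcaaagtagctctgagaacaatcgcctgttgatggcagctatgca
Timp1: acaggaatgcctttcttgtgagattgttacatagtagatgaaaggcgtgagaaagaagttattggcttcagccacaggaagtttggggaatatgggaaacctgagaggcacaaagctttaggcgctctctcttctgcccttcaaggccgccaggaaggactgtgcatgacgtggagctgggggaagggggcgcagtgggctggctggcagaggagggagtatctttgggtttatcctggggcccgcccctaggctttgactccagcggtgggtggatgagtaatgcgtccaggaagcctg

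Libraries were made with Smart-3SEQ, which reads the 3′ ends of transcripts. Total counts per liver ran from 5005760 to 7160172 in p16-3MR mice and from 3084517 to 5667904 in WT mice. Values are given in counts per 1000000 (CPM) of library sizes scaled by the trimmed mean of M-values (TMM). Levels were compared between livers and not between genes. A count of 3, the floor used here, came to 0.293 to 0.578 CPM in 11 p16-3MR livers and 0.516 to 0.943 CPM in WT livers. Liver 33, a GCV-treated female, stood apart with 64.0% of its counts on mitochondrial genes, a TMM factor of 0.259 and a floor of 2.32 CPM, so 1 count there was worth 0.772 CPM. Liver 32, a GCV-treated male, stood apart in its hepatocyte markers, with a summed 26500 CPM against 82700 and 83700 CPM in the other GCV-treated males.

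In p16-3MR livers, 9 of the 40 members reached the floor in all 12 livers. These were Mmp14, Mmp15 and Mmp19, the inhibitors Timp2 and Timp3, the proteases Adamts1, Adamts2 and Adamts5, and the lysyl oxidase Loxl3. Another 28 reached it in some livers, and Mmp28, Adamts3 and Adamts16 in none. A total of 30 counts over the 12 livers was reached by 33 members. The median over livers was under 1 CPM for 20 members, so for these a fall or a small rise was hard to detect at this depth. Among the 23 members of the WT table, Mmp14, Mmp15, Mmp19, Adamts10 and Adamts13 reached the floor in all 12 livers, and 11 members had 30 counts or more.

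Of the 33 members with 30 counts or more, 21 (63.6%) had their highest value of the 12 p16-3MR livers in liver 32, while 20.7% of the 15374 genes with as many counts did so. Of these members 4 had 30 counts only with liver 32 included, and of the 29 with 30 counts in the other 11 livers, 18 (62.1%) were highest in liver 32, against 20.1% of 14900 genes. Liver 33 held the highest value of 2 members, Adamts1 and Adamts2, and of 19.8% of all genes. VEH-treated male 24 held that of 3 members. The plot of the liver with the highest value and the map of all members show this split.

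**Figure D1:**
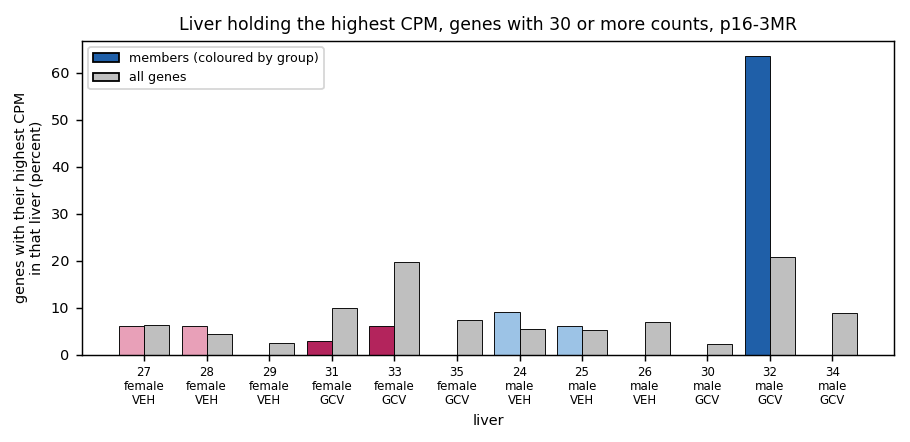
For each of the 12 p16-3MR livers, the coloured bar gives the percent of the 33 members, and the grey bar the percent of all 15374 genes, with their highest CPM in that liver (genes with 30 or more counts). Liver 32 holds 63.6% of members and 20.7% of genes.

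**Figure D2:**
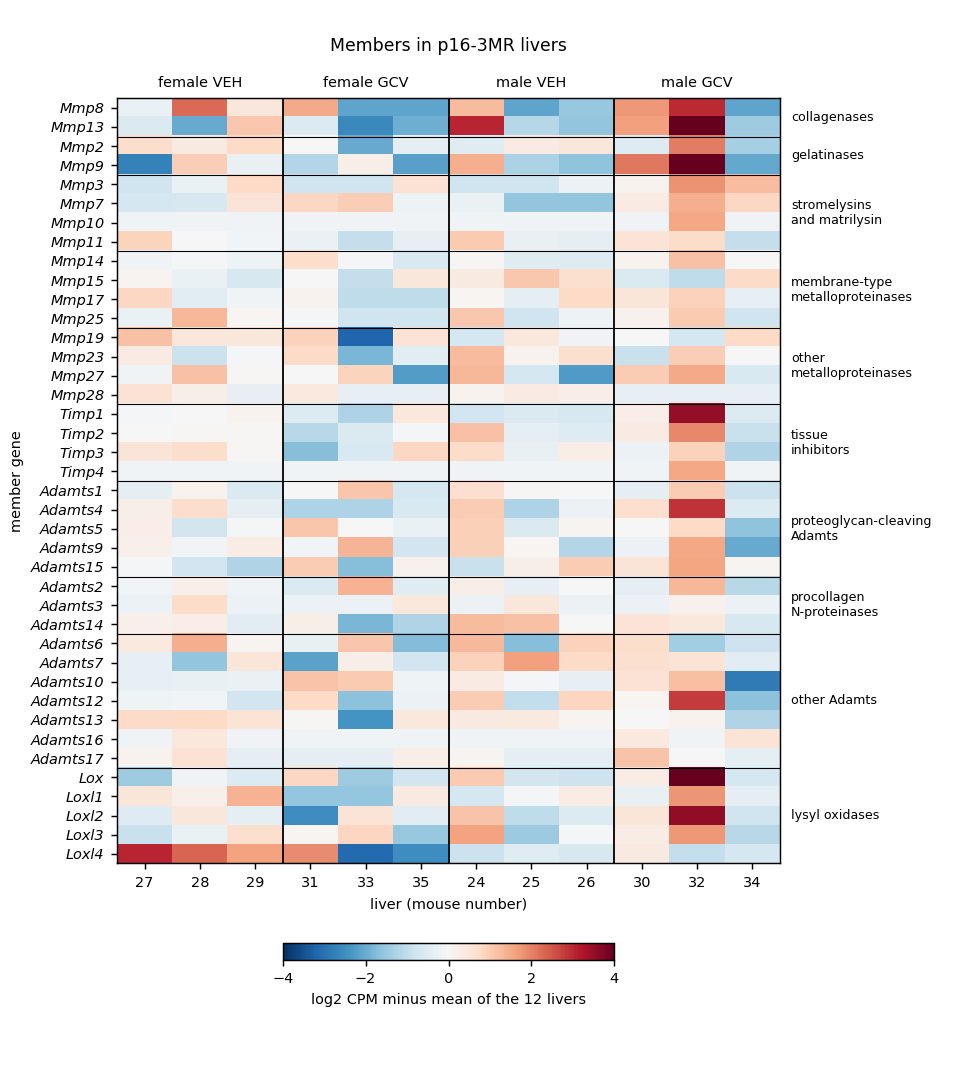
Log2 CPM (prior count 2) of each of the 40 members in each p16-3MR liver, minus that member's mean over the 12 livers. Colours stop at 4 and -4, members are ordered by family, and the column of liver 32 is the reddest, with Mmp9, Mmp13, Lox, Loxl2 and Timp1 among its strongest cells.

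The first comparison asks how the members stood after GCV in p16-3MR males. An unadjusted p under 0.05 was found for 5 members, all higher after GCV (Timp1, Mmp9, Mmp7, Mmp3 and Lox). Of these, Timp1 and Lox had under 3 CPM in every liver but liver 32, and Mmp7 and Mmp3 had under 3 CPM in every liver. None passed an adjusted p under 0.05 in edgeR's quasi-likelihood test, where the lowest adjusted p of a member was 1. Over all 21755 genes, 0% were called, 1.91% had an unadjusted p under 0.05 and 1.1% were higher at that level. DESeq2 called no member and had 4 (10%) at an unadjusted p under 0.05, against 0.0231% and 1.93% of all genes. Limma-voom with sample weights called 2, Mmp7 with a log2 change of 3.28 and Mmp15 with -1.36, and had 13 (32.5%) at the unadjusted level, against 0.667% and 23.1% of all genes. In all, 28 members were higher and 12 lower, with a median log2 change of 0.52 against 0.04 over all genes. Without liver 32 these counts turned to 12 higher and 26 lower, with a median of -0.47, and without VEH-treated male 24 to 32 higher and 8 lower, with a median of 1.05. Groups did not overlap for 3 higher members (Timp1, Mmp7 and Mmp3) and 2 lower ones (Mmp28 and Adamts7), as for 3.57% and 2.83% of all genes.

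Among the gelatinases and collagenases, Mmp9 (gelatinase B, made by neutrophils and macrophages) was at 12, 261 and 0.384 CPM in GCV-treated males 30, 32 and 34 and at 7.47, 0.893 and 0.625 CPM in VEH-treated males 24, 25 and 26. Of the 2896 Mmp9 counts in the 12 livers, 2671 came from liver 32, and the groups overlapped. Its log2 change was 4.87 ± 1.64 (SE), with 0.97 without liver 32 and 6.93 without VEH-treated male 24. Mmp13, the interstitial collagenase of rodents, was at 5.5, 119 and 0.384 CPM after GCV and at 15.2, 0.536 and 0.313 CPM after VEH. Liver 32 gave 1221 of its 1440 counts, and VEH-treated male 24 stood above the other GCV-treated males. The log2 change of Mmp13 was 2.93 ± 1.55 and turned to -0.92 without liver 32. Mmp2, gelatinase A, was at 0.564, 4.88 and 0.192 CPM after GCV and at 0.583, 1.25 and 1.41 CPM after VEH. Mmp8, the neutrophil collagenase, reached 10.1 CPM in liver 32 and was at 0 in GCV-treated male 34 and VEH-treated male 25. Without liver 32 the log2 change of Mmp2 went from 0.85 to -1.43 and that of Mmp8 from 2.14 to 0.89. For the 4 genes alike, the high value was that of liver 32 and the treatment groups overlapped.

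Of the stromelysins and the matrilysin, Mmp3 gave 2, 16 and 5 counts (0.282, 1.56 and 0.960 CPM) in GCV-treated males and 0, 0 and 1 count in VEH-treated males. Its groups did not overlap, yet all values apart from that of liver 32 lay near or below the floor. Its log2 change was 3.80 ± 1.53 and 3.13 without liver 32. Mmp7, matrilysin, which is known from epithelial cells, gave 6, 23 and 7 counts (0.845, 2.24 and 1.34 CPM) after GCV and 4, 0 and 0 counts after VEH. Every GCV-treated male was above every VEH-treated male for Mmp7 (log2 change 2.96 ± 1.12), and the log2 change was 2.44 without liver 32. Without VEH-treated male 24 the remaining VEH-treated males had no Mmp7 count, so no fold is given for that fit. In the same livers, markers of cholangiocytes (Krt19, Krt7, Epcam and Sox9) summed to 11.3 to 31.9 CPM after GCV and 8.17 to 11.6 CPM after VEH, with none at 0 in any male, and their part in the result was not tested. Mmp10, another stromelysin, had 7 counts in liver 32 and none in the other livers.

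None of the membrane-type and other Mmp genes had an unadjusted p under 0.05 in males by edgeR. Mmp14, which sits in the cell membrane and activates pro-Mmp2, was at 53.7, 110 and 49.9 CPM after GCV and at 50.8, 34.6 and 34.5 CPM after VEH (log2 change 0.83 ± 0.41). Liver 32 was again the highest and the groups overlapped, with a log2 change of 0.33 without it. Mmp15, a second membrane-type enzyme, was at 9.30, 6.73 and 23.8 CPM after GCV and at 18.1, 29.8 and 22.0 CPM after VEH. Here liver 32 was the lowest of the 12 livers. Mmp19 was at 30.3, 18.6 and 53.4 CPM after GCV and at 18.6, 40.7 and 27.5 CPM after VEH, with full overlap.

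Among the inhibitors, Timp1, which is induced in injured liver, was at 0.564, 8.10 and 0.192 CPM after GCV and at 0.117, 0.179 and 0.156 CPM after VEH. The VEH-treated males had 1 count each and GCV-treated males 4, 83 and 1, and the separation of male 34 from the VEH-treated males in CPM rests on library size alone. Its log2 change of 4.18 ± 1.27 had the lowest unadjusted p of a member in this comparison, and 1.25 remained without liver 32. Timp2 was at 20.6, 62.2 and 8.64 CPM after GCV and at 37.1, 12.1 and 11.3 CPM after VEH. Timp3, which stays bound to matrix, was at 19.3, 43.1 and 9.60 CPM after GCV and at 37.7, 18.4 and 27 CPM after VEH. Both overlapped between treatments, with liver 32 highest and liver 34 lowest. Without liver 32 the log2 change of Timp2 went from 0.60 to -0.52 and that of Timp3 from -0.20 to -0.98. Timp4 had counts in liver 32 only.

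Of the crosslinking enzymes, Lox was at 0.705, 16.5 and 0.192 CPM after GCV and at 1.40, 0.179 and 0.156 CPM after VEH (log2 change 3.23 ± 1.39). Liver 32 held 169 of the 201 counts of Lox, and the log2 change turned to -0.43 without it. Loxl2 was at 5.07, 45.3 and 1.92 CPM after GCV and at 8.29, 1.61 and 2.34 CPM after VEH, with a log2 change of 2.08 ± 1.01 that turned to -0.28 without liver 32. Loxl1, needed for elastic fibres, was at 0.423, 2.73 and 0.384 CPM after GCV and at 0.233, 0.536 and 0.781 CPM after VEH. For these 3 enzymes the second-highest male value was below 9 CPM and the groups overlapped. Among Adamts genes, Adamts4, an aggrecanase, reached 5.07 CPM and Adamts12 6.34 CPM in liver 32. Without it the log2 changes of Adamts4, Adamts12 and Loxl1 went from 1.97, 1.13 and 1.23 to -0.01, -1.53 and -0.34. Adamts1 was at 6.62, 17.8 and 4.61 CPM after GCV and at 13.9, 8.93 and 8.60 CPM after VEH. Adamts2 was at 2.68, 9.46 and 1.54 CPM after GCV and at 4.32, 2.86 and 3.59 CPM after VEH, and both overlapped.

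**Figure D3:**
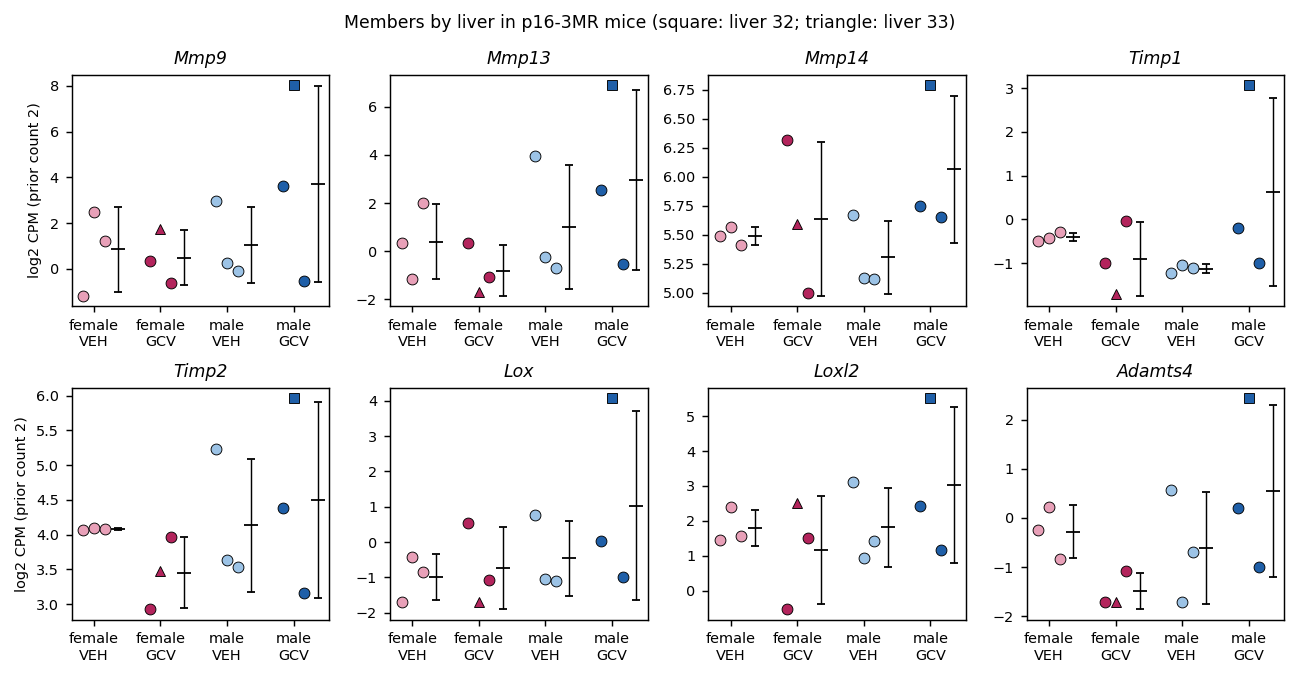
Log2 CPM (prior count 2) of 8 members in each p16-3MR liver by group, with the mean and SD of the 3 livers at the right of each group. Each vertical axis has its own range. The square (liver 32) is the highest point of every panel.

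The number of members with an unadjusted p under 0.05 in males moved with single livers, to 0 without liver 32, 9 without GCV-treated male 34, 11 without VEH-treated male 24, and 2 and 3 without VEH-treated males 25 and 26. Marker genes of several other cell types were high with the members in liver 32, and those of others were not. The 3 myofibroblast markers (Acta2, Tagln and Col1a1) summed to 395 CPM there, of which Col1a1 gave 356, against 34 and 23.6 CPM in GCV-treated males 30 and 34. The 6 Kupffer cell markers summed to 2830 CPM against 904 and 213, and the 5 neutrophil markers, which include Mmp8, to 418 CPM against 138 and 6.92. Hepatic stellate cell markers came to 516 CPM in liver 32 against 272 and 140. The 3 B and plasma cell markers summed to 7.71 CPM there against 31 and 43, and the 4 cholangiocyte markers to 11.3 CPM against 19.9 and 31.9. No marker of these 6 lists was at 0 in liver 32, and their part in the result was not tested. VEH-treated male 24, second for Mmp13 and Lox among males, had 1680 CPM of Kupffer cell markers, 139 CPM of neutrophil markers and 40800 CPM of hepatocyte markers.

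**Figure D4:**
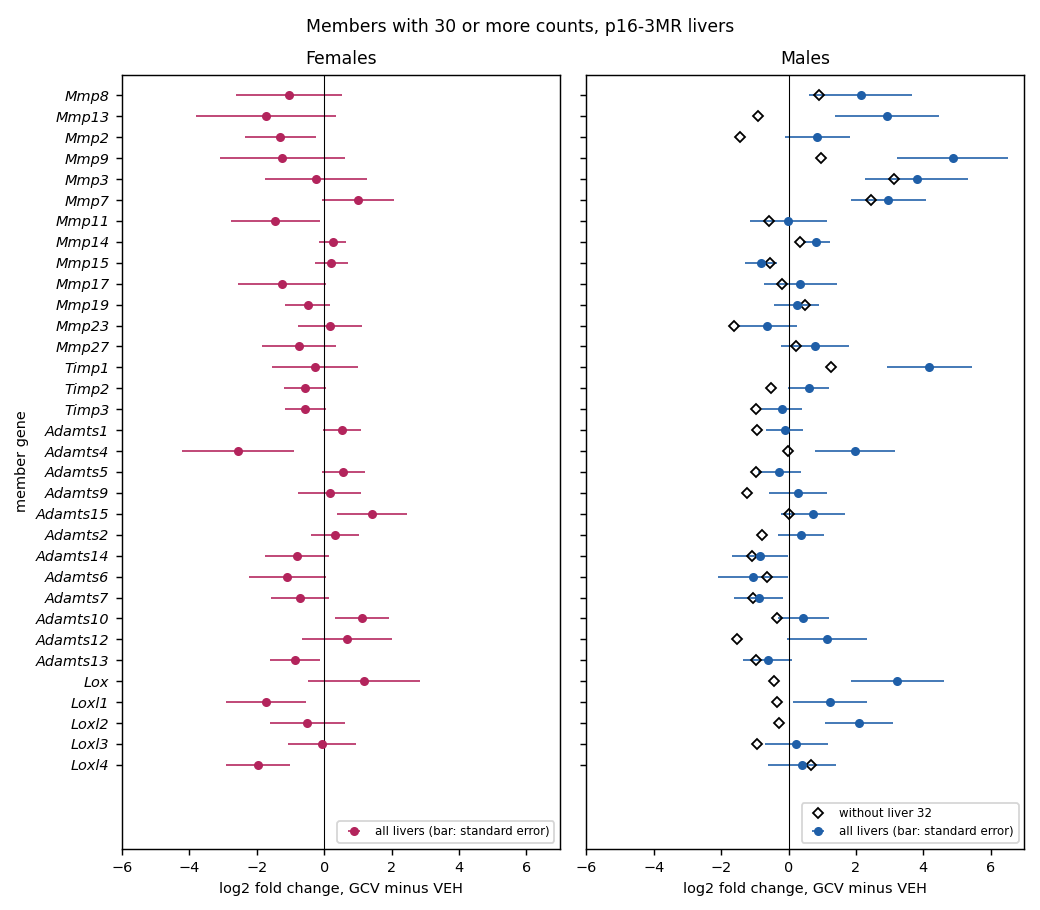
Log2 change (GCV minus VEH) of the 33 members with 30 or more counts in p16-3MR females and males, with the standard error of the fit over all 12 livers. Open diamonds give the male value without liver 32, which lies on the other side of 0 for several members, among them Mmp13, Lox, Loxl2, Mmp2, Timp2 and Adamts12.

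In p16-3MR females, no member had an adjusted or an unadjusted p under 0.05 after GCV by edgeR, and the lowest adjusted p was 0.67. Over all genes 0% were called and 7.37% had an unadjusted p under 0.05. DESeq2 called no member at either level, and limma-voom called none, with 3 (7.5%) at the unadjusted level, against 8.44% and 11.8% of all genes at that level. In all, 12 members were higher and 26 lower, with a median log2 change of -0.53 against 0.0 over all genes, and 9 were higher and 29 lower without liver 33. Marker sums of other cell types differed between the females' treatment groups, with no marker of these lists called by edgeR. Cholangiocyte markers summed to 10.9 to 38.6 CPM after GCV and 4.83 to 9.19 CPM after VEH, with 3 of 4 higher and 2 at 0 in liver 33. Hepatic stellate cell markers summed to 151 to 256 CPM after GCV and 262 to 339 CPM after VEH, with 5 of 6 lower, and Kupffer cell markers to 108 to 322 and 291 to 932 CPM, with 6 of 6 lower and sums that overlapped. B and plasma cell markers summed to 1.93 to 15.3 CPM after GCV and 10.7 to 45.7 CPM after VEH, and the sums overlapped. Of these 3 markers, Cd79a (log2 change -2.86) and Ms4a1 (-2.52) were lower at an unadjusted p under 0.05 by edgeR, and 1 was higher. Of 3 T cell markers 2 were lower and 1 higher, with Cd8a (-4.52) lower at that level. Their sums of 1.34 to 5.41 CPM after GCV and 1.88 to 12.1 CPM after VEH overlapped, with 1 marker at 0 in each of livers 33 and 35. No stellate, Kupffer, or B and plasma cell marker was at 0 in any female, and the part of these lists in the result was not tested. At the unadjusted level 1 member appeared without liver 29, 31, 32 or 34 and 2 without liver 35. Groups did not overlap for 5 lower members (Mmp2, Mmp11, Timp2, Adamts4 and Adamts13) and 1 higher member (Adamts10), where 7.35% and 5.91% of all genes lay apart in the same way. Several of these separations rest on few counts. GCV-treated females together had 2 counts of Mmp11 and 1 of Adamts4. Adamts13 was at 0 in liver 33, where the floor was 2.32 CPM, against 2.01 to 2.46 CPM after VEH.

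Timp2 was at 7.33, 10.8 and 15.3 CPM in GCV-treated females 31, 33 and 35 and at 16.5, 16.8 and 16.6 CPM in VEH-treated females 27, 28 and 29. The VEH values had a mean of 16.6 ± 0.149 CPM (SD, n = 3), and the GCV values all lay below them and were spread more widely (log2 change -0.57 ± 0.63). Mmp2 was at 0.964, 0 and 0.671 CPM after GCV and at 1.74, 1.30 and 1.89 CPM after VEH. The value of 0 came from liver 33, where the floor of 2.32 CPM is above every other Mmp2 value of the females. Timp3 was at 6.75, 14.7 and 40.3 CPM after GCV and at 32.2, 36.9 and 23.4 CPM after VEH, and overlapped.

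Loxl4, a lysyl oxidase, was at 9.64, 0 and 0.168 CPM in GCV-treated females and at 21.7, 13.2 and 7.93 CPM in VEH-treated females. The GCV values overlapped with VEH through liver 31, and the fall of 1.97 on the log2 scale had a standard error of 0.96 (adjusted p = 0.67). Leaving out single livers moved the change between -6.56 and -1.37, with -6.56 without liver 31. Mmp14 was at 79.8, 47.9 and 31.7 CPM after GCV and at 44.5, 47.2 and 42.2 CPM after VEH, so that both the highest and the lowest female values were after GCV. Mmp15 was at 13.7, 6.95 and 19.3 CPM after GCV and at 15.1, 11.6 and 8.68 CPM after VEH. Mmp19 was at 57.8, 3.09 and 44.4 CPM after GCV, the low value being liver 33, and at 68.8, 41.2 and 41.4 CPM after VEH.

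Of the genes named for males, Mmp9, Mmp13, Timp1 and Lox stayed below 6 CPM in all females. Mmp9 was at 0.964, 3.09 and 0.335 CPM after GCV and at 0.134, 5.35 and 2.01 CPM after VEH. Mmp13 was at 0.964, 0 and 0.168 CPM after GCV and at 0.938, 0.145 and 3.65 CPM after VEH. Timp1 was at 0.193, 0 and 0.671 CPM after GCV and between 0.402 and 0.503 CPM after VEH. Treatments overlapped for the 3 genes. Lox was at 1.16, 0 and 0.168 CPM after GCV and at 0, 0.434 and 0.252 CPM after VEH. Loxl2 was at 0.386, 5.41 and 2.52 CPM after GCV and at 2.41, 4.92 and 2.64 CPM after VEH. Loxl1 was at 0, 0 and 0.839 CPM after GCV and at 0.938, 0.723 and 2.01 CPM after VEH, and these enzymes overlapped too. Adamts1 was at 8.48, 19.3 and 5.2 CPM after GCV and at 6.57, 9.69 and 5.66 CPM after VEH. Adamts2 was at 2.31, 10 and 2.52 CPM after GCV and at 3.35, 4.20 and 3.27 CPM after VEH, with liver 33 the highest for both genes, and without it their log2 changes went from 0.52 and 0.31 to -0.16 and -0.64.

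The difference of the GCV responses between the sexes was tested as an interaction. No member had an adjusted p under 0.05 (lowest 0.976, over all genes 0%), and 3 had an unadjusted p under 0.05, namely Mmp9 at -6.11 ± 2.40, Timp1 at -4.46 ± 1.79 and Adamts4 at -4.53 ± 2.05, all with the female change below the male one. Over all genes 3.78% had such a p, 1.87% with a lower change in females. Without liver 32 the differences were -2.16 for Mmp9, -1.61 for Timp1 and -2.57 for Adamts4. DESeq2 and limma-voom called none and had 3 and 8 members at the unadjusted level, against 3.47% and 15.5% of all genes. The number was 0 without liver 32, 1 without VEH-treated female 28, 6 without GCV-treated male 34 and 9 without VEH-treated male 24.

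Between the GCV-treated sexes, 7 members had an unadjusted p under 0.05 and all 7 were lower in females, against 8.41% of all genes in either direction and 4.95% lower. They were Mmp9 (-6.42 ± 1.91), Mmp13 (-6.42 ± 2.05), Adamts4 (-4.45 ± 1.61), Loxl2 (-2.89 ± 1.12), Timp1 (-2.98 ± 1.23), Lox (-3.41 ± 1.5) and Timp2 (-1.45 ± 0.64). None passed an adjusted p under 0.05 in edgeR (lowest 0.569, 0.0965% of all genes called) or limma-voom (3 at the unadjusted level, against 15.6% of all genes), while DESeq2 called Mmp9 and Mmp13, with 6 members at the unadjusted level, against 0.604% and 9.12% of all genes. Without liver 32 no member had an unadjusted p under 0.05, the log2 difference of Mmp9 was -2.53, that of Timp1 -0.16, and that of Lox turned to 0.11. Those of Mmp13, Adamts4, Loxl2 and Timp2 came to -2.7, -2.55, -0.62 and -0.45. Of the 7, only Adamts4 did not overlap between the sexes, with 0, 0 and 0.168 CPM in females and 0.845, 5.07 and 0.192 CPM in males, where 5.16% of all genes were lower and 3.09% higher in females in the same way. The values of 0.168 and 0.192 CPM are 1 count each, so that this separation rests on library size alone. Of the 6 Kupffer cell markers, 5 were lower in GCV-treated females at an unadjusted p under 0.05 by edgeR (median log2 difference -2.71), and 1 was higher. All 5 neutrophil markers (-1.83) and all 6 hepatic stellate markers (-0.68) were lower, with 0 at that level. Among hepatocyte markers 3 were higher and 2 lower. The part of these lists in the result was not tested.

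Between VEH-treated p16-3MR females and males, Loxl4 was the member with an unadjusted p under 0.05. It was at 21.7, 13.2 and 7.93 CPM in females and at 1.17, 1.61 and 1.41 CPM in males, 14.3 ± 6.96 against 1.39 ± 0.220 CPM (mean ± SD, n = 3 each). Every female was above every male and the lowest female stood clear of the highest male. The log2 difference was 3.35 ± 1.02 and its adjusted p over all genes was 0.982 by edgeR. Of all genes, 2.74% had an unadjusted p under 0.05, 1.25% were higher in females at that level and 0.12% were called. The Loxl4 difference stayed between 2.91 and 3.63 when each of the 12 livers was left out. With only the 6 VEH livers in the fit the adjusted p was 0.0174. DESeq2 and limma-voom called no member, with 3 and 6 at the unadjusted level, against 2.42% and 10.6% of all genes. GCV-treated males had 3.10, 1.07 and 1.34 CPM of Loxl4, so the 4 highest of the 12 livers were female.

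Groups of VEH-treated p16-3MR livers also did not overlap for Timp1, Mmp19 and Adamts13, higher in females, and for Mmp15 and Adamts7, lower in females, that is 4 higher members with Loxl4 and 2 lower ones against 4.22% and 5.13% of all genes. Mmp15 was at 15.1, 11.6 and 8.68 CPM in females and at 18.1, 29.8 and 22.0 CPM in males (log2 difference -0.98 ± 0.49, adjusted p = 1). The number with an unadjusted p under 0.05 rose from 1 to 3 without VEH-treated male 24 or liver 33, to 2 without liver 29, 31, 32 or 34, and to 4 without livers 32 and 33 together.

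In WT livers Mmp14 and Adamts10, which were highest in liver 32 among p16-3MR livers, reached the floor in all 12. Mmp9 was at most 0.874 CPM, Mmp13 0.470 CPM, Mmp3 0.860 CPM and Mmp7 0.629 CPM, and Mmp13 and Mmp7 had under 3 counts in every WT liver. Loxl4 lay between 0 and 2.19 CPM in all 12 WT livers. Timp1, Timp2, Timp3, Lox, Loxl1, Loxl2, Adamts1, Adamts2 and Mmp2 had no label of their own in this table, and no value is given. The 2 of 5 neutrophil markers measured in this table summed to at most 6.10 CPM and the 3 of 6 Kupffer cell markers to 84.5 to 154 CPM.

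After GCV in WT females, no member passed an adjusted p under 0.05 in edgeR (lowest 0.424, 0.00791% of all genes called), DESeq2 or limma-voom, and each tool had 1 member with an unadjusted p under 0.05, against 4.56% of all genes in edgeR (2.25% higher), 2.93% in DESeq2 and 6.33% in limma-voom. That member was Mmp19, a secreted metalloproteinase. It was at 71.8, 74.5 and 76.6 CPM in GCV-treated females and at 54.7, 56.8 and 44.7 CPM in VEH-treated females, 74.3 ± 2.38 against 52.1 ± 6.5 CPM (mean ± SD, n = 3 each). Every GCV value was above every VEH value, as for 5.05% of all genes, while Adamts14 lay lower without overlap, as for 4.95%. The log2 change was 0.51 ± 0.14 and ran from 0.41 to 0.58 as single livers were left out. With the replicate number as a block in edgeR, it was 0.52 with an adjusted p of 0.0309, although the numbers did not pair the livers. In WT males Mmp19 was at 57.2, 63.0 and 57.4 CPM after GCV and at 69.2, 50.1 and 52.0 CPM after VEH, and overlapped. The difference between the sexes in this response was 0.45 ± 0.20 (adjusted p = 0.982, the lowest of a member), and Mmp19 was the 1 member with an unadjusted p under 0.05 there, against 4.45% of all genes, 1.95% with a higher change in females and 0.00791% called. DESeq2 and limma-voom called none, with 1 and 2 members at the unadjusted level, against 2.86% and 6.75% of all genes, and the number in edgeR ran from 0 to 3 as single livers were left out. Over members, 7 were higher and 15 lower in females, and 13 higher and 8 lower in males.

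In WT males, 2 members had an unadjusted p under 0.05 after GCV, where 5.06% of all genes did and 0% were called, and no member was called (edgeR, lowest adjusted p 0.889). DESeq2 and limma-voom also called none, with 1 and 2 members at the unadjusted level, against 3.28% and 8.81% of all genes, and leaving out single livers gave 1 to 3 in edgeR. Both rest on few counts. Mmp17 had 1, 0 and 8 counts after GCV and none after VEH. Adamts15 had no count after GCV and 4, 3 and 1 counts after VEH, and no fold is given. Adamts13, which cuts von Willebrand factor, was at 6.29, 6.56 and 4.58 CPM after GCV and at 4.26, 3.28 and 3.29 CPM after VEH (log2 change 0.70 ± 0.35, adjusted p = 0.889). Its groups did not overlap, as for 4.48% of all genes in that direction and, like Adamts15, 4.37% in the other.

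Sex differences in WT livers were seen in 2 members of the VEH groups and 4 of the GCV groups at an unadjusted p under 0.05, where 15.2% and 12.8% of all genes had one. None passed an adjusted p under 0.05 in edgeR (lowest 0.129 and 0.0833), where 3.82% and 3.24% of all genes were called, nor in DESeq2 (2 and 4 unadjusted, against 12.7% and 10.5% of all genes) or limma-voom (2 and 5 unadjusted, against 18.2% and 14.9%). With single livers left out the unadjusted counts of edgeR ran from 1 to 2 and from 2 to 4. Mmp15 was lower in females in both. It was at 22.9, 16.8 and 24.2 CPM in VEH-treated females and at 38.9, 26.2 and 33.9 CPM in VEH-treated males (log2 difference -0.63 ± 0.22, adjusted p = 0.143). After GCV it was at 21.9, 17.5 and 22.1 CPM in females and at 36.2, 22.6 and 46.1 CPM in males (-0.74 ± 0.23, adjusted p = 0.0833). Females lay below males in both treatments, by a narrow gap to GCV-treated male 2. Without that liver the GCV difference was -1.0 with an adjusted p of 0.00478, without VEH-treated male 1 the adjusted p was 0.0497, and with only the 6 GCV livers in the fit it was 0.0329.

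Mmp14 was higher in WT females. After GCV it was at 26, 24.7 and 23.7 CPM in females and at 15.7, 21.1 and 12.5 CPM in males (0.57 ± 0.19, adjusted p = 0.130, and 0.0285 without GCV-treated male 2). After VEH it was at 23.9, 25.2 and 25.6 CPM in females and at 17.6, 21.0 and 23.6 CPM in males (0.26 ± 0.18, adjusted p = 0.555). Females lay above males in both treatments, narrowly after VEH. Mmp19 was higher in GCV-treated females than males (0.33 ± 0.14, adjusted p = 0.290). Adamts13 was at 7.05, 7.52 and 6.82 CPM in VEH-treated females and at 4.26, 3.28 and 3.29 CPM in VEH-treated males (0.99 ± 0.34, adjusted p = 0.129). After GCV it was at 8.81, 6.33 and 3.46 CPM in females and overlapped with males. Adamts6 was between 0.678 and 1.15 CPM in GCV-treated females and at 0, 0 and 0.305 CPM in GCV-treated males (adjusted p = 0.320), at or near the floor. Adamts14 and Loxl3, at or near the floor in all livers, were the other members higher in VEH-treated females without overlap, which made 4 with Mmp14 and Adamts13, against 9.82% of all genes, and Mmp15 was the 1 lower member, against 8.69%. In the GCV groups 3 were higher (Mmp14, Mmp19 and Adamts6) and 2 lower (Mmp15 and Mmp11), against 9.41% and 8.98%. In the WT livers, the 2 of 6 hepatic stellate markers with a label of their own summed to 249 to 265 CPM in GCV-treated females and 178 to 215 CPM in GCV-treated males, and to 244 to 275 and 201 to 231 CPM in the VEH groups. The 2 of 6 hepatocyte markers with such a label summed to 13200 to 14800 CPM in GCV-treated females and 16900 to 17800 CPM in GCV-treated males. In the VEH groups they summed to 14500 to 14900 and 18100 to 18900 CPM. Among them Serpina1c was lower in females (edgeR, adjusted p = 9.25e-05 after GCV and 1.94e-05 after VEH), with log2 differences of -0.68 and -0.76. The other hepatocyte marker was lower too, but without an unadjusted p under 0.05 by edgeR. The median of both was -0.39 after GCV and -0.44 after VEH, a smaller difference than that of Serpina1c alone. No marker of the 2 lists was at 0, and their part in the result was not tested.

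**Figure D5:**
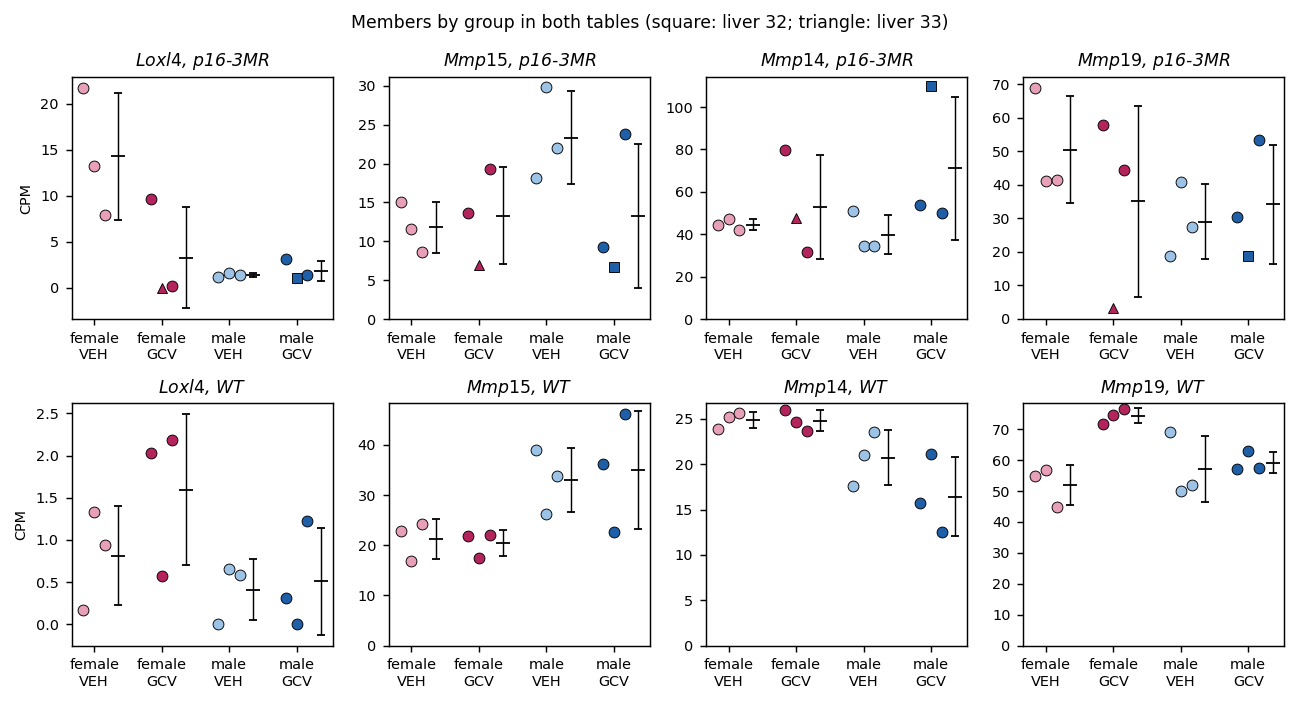
CPM of Loxl4, Mmp15, Mmp14 and Mmp19 in each liver by group, with the mean and SD of the 3 livers, in p16-3MR mice (top) and WT mice (bottom), which were scaled separately. Loxl4 is high in VEH-treated p16-3MR females (7.93 to 21.7 CPM), and Mmp15 lies lower in WT females than in WT males.

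Genes that work with the members were taken from 7 lists of 57 genes (plasminogen system, cathepsins and cystatin C, Adam proteases, other inhibitors, Adamts-like proteins, collagen-modifying enzymes and substrates), of which 56 were in the p16-3MR table and 28 in the WT table. None was called by edgeR in any of the 10 comparisons. In p16-3MR males 47 were higher and 9 lower after GCV, with 6 (10.7%) at an unadjusted p under 0.05, against 1.91% of all genes. All 6 were higher, among them the fibrillar collagen genes Col1a1 (log2 change 3.33) and Col1a2 (2.40) and the procollagen C-proteinase enhancer Pcolce (1.22). Without liver 32, 29 were higher and 27 lower, 1 lower gene had such a p, and the changes of these 3 genes were 0.33, -0.15 and 0.99. Without VEH-treated male 24, 19 had such a p. In p16-3MR females 19 were higher and 37 lower, with 2 higher and 1 lower at the unadjusted level (5.36%, against 7.37% of all genes) and none without liver 33. Between GCV-treated sexes 15 (26.8%, against 8.41% of all genes) were lower in females at the unadjusted level and none higher, among them Plau, the urokinase that activates plasmin (-5.79). Without liver 32 there were 2 lower and 2 higher, and the difference of Plau was -3.4. Plau was at 70.4 CPM in liver 32. In WT mice 12 were higher and 16 lower after GCV in females and 16 higher and 12 lower in males, with none at the unadjusted level.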

How the data were processed

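Smart-3SEQ libraries of 24 mouse livers were analysed from 2 deposited tables. Per the labels, tools were FastQC 0.11.9, Trim Galore 0.6.10 and Salmon 1.10.3 with mm10. The authors summed Salmon's transcript estimates to genes and excluded genes with fewer than 3 reads, and they deposited whole-number expected counts, that is estimated counts, with no scaling to library size. Smart-3SEQ reads transcript ends, so that a gene's count does not grow with its length. PCR copies can add to the counting error, and whether the floor of 3 counts covers this was not tested.

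Members were matched by Ensembl ID to GENCODE symbols (GRCm38) or, in the WT table, by labels that fit 1 symbol once 9 letters were removed. Of 12643 WT labels, 10500 matched 1 symbol, 2069 several and 74 none. The symbol that the rule leaves out is not reported here. Each table was fitted over all its genes with edgeR 4.0.16 in R 4.3.3 (TMM, 1 mean per group over 12 livers, quasi-likelihood test, Benjamini-Hochberg adjustment over all genes, calls at an adjusted p under 0.05). CPM uses TMM-scaled library sizes and log2 CPM a prior count of 2. P-values of this fit rest on the spread between livers within groups of 3. That spread was estimated over all 12 livers of a table and moderated across genes, so livers outside a comparison also enter its p-value. Values per liver are given for members with an adjusted p under 0.05, for up to 6 members per contrast with the lowest unadjusted p under 0.05, and for 14 members of known role in liver. Other members named, such as Loxl4 in females, were chosen after their values were seen. The members and lists were chosen with earlier results of these data known.

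Alternatives were DESeq2 1.42.0, DESeq2's size factors, limma 3.58.1 (voom with sample weights), edgeR's filterByExpr, only the livers compared, an adjusted p under 0.1, a replicate block in WT mice, a prior count of 0.5, and each liver left out. A fit without livers 32 and 33 together was added after seeing the data. The fit was tested on simulated data with 200 changed genes. Figures and tables used Python 3.11.15, numpy 2.4.6, pandas 2.3.3 and matplotlib 3.10.9.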

Additional observations from a re-analysis of the deposited data

How the results depend on the processing

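Of 625 alternative values for 36 named log2 changes, 605 kept their direction and side of the threshold, 9 passed the threshold where the reported value did not, and 11 changed sign. No reported value had passed the threshold, and many fits left out a liver outside the comparison, so this tally does not measure how stable the sizes were. Values that kept both include the male change of Mmp9, 4.87 as reported and 0.97 at its lowest with single livers left out. The Timp1 difference between GCV-treated sexes, -2.98 as reported and -0.16 at its smallest, is another. Counts of called members, all 0 as reported, moved to 2 in p16-3MR males after GCV with limma-voom, to 1 between VEH-treated p16-3MR sexes with only the livers compared, and to 2 between GCV-treated p16-3MR sexes with DESeq2. Between GCV-treated WT sexes it was 1 with only the livers compared, 1 at an adjusted p under 0.1, and 0 to 2 with each liver left out. In the other 9 comparisons it was 0 with each liver left out. Without livers 32 and 33 together the male changes of Lox, Mmp13 and Loxl2 turned to -0.37, -0.85 and -0.23, the female change of Mmp19 to 0.02, and the differences between GCV-treated sexes of Timp1 and Lox to 0.17 and 0.48. With single livers left out, the male changes ran from -0.43 to 5.03 (Lox), -0.92 to 6.62 (Mmp13) and -0.28 to 3.18 (Loxl2), the female change of Mmp14 from -0.17 to 0.52, and the difference of Lox between GCV-treated sexes from -5.30 to 0.11. The causes were not tested. The WT replicate numbers did not pair the livers (correlations of same-numbered livers from -0.0663 to 0.283, not each the highest of its liver), and a replicate block called 1 member in WT females, Mmp19 (adjusted p = 0.0309), with no other member called. Depth limits many members, since 20 of 40 had a median under 1 CPM in p16-3MR livers and 16 of 23 in WT livers.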
